A study of Homo sapiens with 66 samples.

Results

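The genes described here encode 4 ligands of the epidermal growth factor receptor (EGFR), AREG, EREG, HBEGF and TGFA, and 5 inhibitors of the signalling cascade below that receptor, SPRY1, SPRY2, SPRY4, SPRED1 and SPRED2. They were matched by symbol to the Ensembl identifiers of the deposited count files, and make up 9 of the 58051 genes counted in each library. All 9 passed the filter on low counts that left 17812 genes for testing.

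The ligands are made as membrane-anchored precursors, from which proteases such as ADAM17 release the soluble factor. Binding to EGFR drives RAS and the ERK kinases, and active ERK in turn raises transcripts of the ligands and of the inhibitors. Sprouty (SPRY) and SPRED proteins are membrane-associated inhibitors of RAS and RAF activation, so that ligands and inhibitors form the positive and the negative feedback arms of 1 pathway. AREG and EREG are ligands produced by many colorectal cancers.

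DLD-1, a human colorectal cancer line, was the parent of every line. In the tagged lines a plant-derived auxin-inducible degron (AID) had been added to both copies of 1 gene by genome editing, and the auxin receptor TIR1 was expressed from the RCC1 locus, so that 1 mM auxin leads to destruction of the tagged protein. The genotypes were AID-NeonGreen-TPR, NUP153-NeonGreen-AID and NUP50-NeonGreen-AID, which tag nucleoporins of the nuclear basket; GAP1-NeonGreen-AID, which tags RANGAP1, the activator of the Ran GTPase; AID-FLAG-NXF1, which tags the mRNA export receptor; and AID-HA-GANP1, which tags GANP, the scaffold of the TREX-2 complex. Each line was selected as a clone, so line and clone cannot be told apart. Libraries were made from untreated cells and from cells given auxin for 2 h (AID-TPR, NUP153-AID, RANGAP1-AID, AID-NXF1 and DLD-1), 3 h (NUP50-AID and AID-GANP), 8 h (AID-TPR, NUP153-AID and RANGAP1-AID) or 9 h (NUP50-AID). AID-TPR libraries carry replicate numbers with or without the label old, and the 8 h libraries exist with that label only. AID-TPR cells were also given the transcription inhibitor Actinomycin D (ActD) for 2 h, alone or with auxin. Each of the 22 groups has 3 libraries, which the study's methods describe as independent biological replicates.

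The 66 libraries held between 18943661 and 55411411 counted reads, with a median of 32285399.5. RNA of the tagged gene itself differed by log2 fold changes between -0.057 and 0.286 in the 11 auxin comparisons of tagged lines, which does not bear on the labels because auxin acts on the protein. Of 9 epithelial markers, 8 were above 1 CPM (counts scaled to library size) in every library, while CDX1 reached at most 0.504 CPM. Of 5 markers of other cell types, COL1A1 reached at most 1.77 CPM and the others stayed below 1 CPM in every library. In the DLD-1 libraries the labels are in doubt. CYP1A1, a target of the aryl hydrocarbon receptor, was higher with auxin in 11 of 11 comparisons of tagged lines (log2 fold changes of 1.14 to 6.68), yet averaged 12.7 CPM in the DLD-1 libraries labelled auxin and 184 CPM in those labelled untreated (log2 fold change of -3.84, adjusted p = 8.2e-07). Directions in DLD-1 cells therefore rest on labels that this gene goes against.

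In GRCh38 coordinates from GENCODE release 44, AREG (chr4:74445136-74455005, plus strand, 6 exons) and EREG (chr4:74365145-74388749, plus strand, 5 exons) are neighbours, with 56386 bases between the end of EREG and the start of AREG. HBEGF lies at chr5:140332843-140346603 on the minus strand (6 exons) and TGFA at chr2:70447284-70554193 on the minus strand (6 exons). Among the inhibitors, SPRY1 (chr4:123396795-123403760, plus strand) has 3 exons, SPRY2 (chr13:80335976-80341126, minus strand) and SPRY4 (chr5:142310427-142326455, minus strand) have 2 each, SPRED1 (chr15:38252836-38357249, plus strand) has 7 and SPRED2 (chr2:65310851-65432637, minus strand) has 6. None shares an exon with another annotated gene. A noncoding RNA antisense to SPRY4, SPRY4-AS1, had 6 to 46 counts per library, set against 129 to 887 for SPRY4, and the use of strand in counting was not given in the sources used here.

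The promoters of the neighbouring ligands and of HBEGF are shown because these had the most calls among the ligands, and that of SPRY2 as an example of the inhibitors. SPRY2 did not have the most calls among the inhibitors. Each sequence is the 250 bases before the RefSeq start (GRCh38.p14), 5′ to 3′ on the gene's strand, at chr4:74444886-74445135 (plus) for AREG, chr4:74364895-74365144 (plus) for EREG, chr5:140346604-140346853 (minus) for HBEGF and chr13:80341127-80341376 (minus) for SPRY2. Capitals mark the cyclic AMP response element TGACGTCA, the TATA box TATAAA, the GC box GGGCGG and the ETS motif CCGGAA, searched on both strands. Shorter ETS matches such as GGAA were not searched.
AREG: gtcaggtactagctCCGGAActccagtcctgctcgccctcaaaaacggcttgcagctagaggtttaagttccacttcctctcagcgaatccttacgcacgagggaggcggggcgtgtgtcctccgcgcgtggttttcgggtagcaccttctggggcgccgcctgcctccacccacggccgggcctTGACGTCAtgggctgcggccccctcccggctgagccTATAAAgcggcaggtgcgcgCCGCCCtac
EREG: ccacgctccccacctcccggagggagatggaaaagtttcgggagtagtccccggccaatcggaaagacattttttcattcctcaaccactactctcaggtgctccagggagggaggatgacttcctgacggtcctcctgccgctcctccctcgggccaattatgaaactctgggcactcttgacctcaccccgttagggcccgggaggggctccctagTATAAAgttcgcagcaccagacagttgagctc
HBEGF: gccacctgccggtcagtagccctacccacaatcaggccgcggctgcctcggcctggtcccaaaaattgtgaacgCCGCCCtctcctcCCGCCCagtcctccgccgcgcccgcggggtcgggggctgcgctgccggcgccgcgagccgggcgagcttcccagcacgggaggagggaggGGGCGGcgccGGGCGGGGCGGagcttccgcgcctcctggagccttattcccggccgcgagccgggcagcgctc
SPRY2: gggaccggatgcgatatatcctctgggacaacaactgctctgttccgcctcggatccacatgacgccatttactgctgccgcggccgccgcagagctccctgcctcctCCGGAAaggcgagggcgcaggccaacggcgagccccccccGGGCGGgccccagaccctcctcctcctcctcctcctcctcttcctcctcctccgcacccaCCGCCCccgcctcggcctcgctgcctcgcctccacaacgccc
The AREG promoter held the cyclic AMP response element 65 bases before the start, which 1.65% of 35116 RefSeq promoters of this length hold, and a TATA box 29 bases before it. EREG had a TATA box 32 bases before its start, and TATA boxes were present in 10.7% of all promoters and in no other of the 9 genes. HBEGF had 5 GC boxes and no TATA box, with 76.4% G and C over the window. SPRY2 had 2 GC boxes and a CCGGAA match. At least 1 GC box was found in 6 of the 9 promoters, against 42.6% of all, and CCGGAA in 2, against 14.5%. The AP-1 site TGACTCA (4.20% of all promoters) and the CArG box (1.16%) had no match in any of the 9 windows. These matches describe letters only and say nothing on whether a factor was bound.

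Levels differed widely before any treatment. Per kilobase of exon, EREG and AREG were the most abundant, with medians over the 8 untreated groups of 127 and 93.2 RPKM (CPM divided by exon length in kilobases), followed by TGFA at 32.8. HBEGF, at 3.22 RPKM, was in the range of the Sprouty genes, at 3.25 (SPRY1), 4.90 (SPRY2) and 1.74 (SPRY4), and SPRED2 and SPRED1 were at 8.61 and 7.45. The number of reads behind the values ran from 91 to 1048 per library for HBEGF and from 8978 to 82507 for EREG.

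Between the untreated groups AREG, EREG and HBEGF varied most, by 3.85, 3.73 and 3.90 times from the lowest to the highest mean CPM, against 1.58 to 2.26 times for the 5 inhibitors and TGFA. AREG was highest in NUP153-AID cells (351 ± 92.9 CPM, SD, n = 3), and all 3 libraries exceeded those of the next group. AID-TPR (203 ± 69.6), NUP50-AID (197 ± 14.7), AID-NXF1 (172 ± 33.6), DLD-1 labelled untreated (134 ± 25.4) and RANGAP1-AID (127 ± 18.0) followed, with overlap between neighbours in this order. Old AID-TPR (101 ± 4.68) and AID-GANP (91.2 ± 11.9) were lowest and overlapped each other, below all RANGAP1-AID libraries. EREG was likewise highest in NUP153-AID cells (1438 ± 165 CPM), followed by AID-TPR (1027 ± 202), AID-NXF1 (970.1 ± 179) and DLD-1 (867 ± 105), which overlapped as neighbours, and then, below all of these, by NUP50-AID (584 ± 28.9), AID-GANP (533 ± 146), old AID-TPR (451 ± 22.7) and RANGAP1-AID (386 ± 77.6).

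HBEGF ranged from 16.3 ± 2.99 CPM in AID-NXF1 cells to 4.17 ± 0.502 CPM in RANGAP1-AID cells, with NUP50-AID (4.91 ± 0.314) above all RANGAP1-AID libraries and below those of every other group. TGFA was highest in NUP153-AID and DLD-1 cells (178 CPM in both, SD 7.67 and 4.21) and lowest in AID-TPR cells (96.8 ± 6.30). The label sets of AID-TPR differed in this respect, since the old libraries held 164 ± 2.79 CPM of TGFA. For SPRY1 (9.68 to 16.3 CPM), SPRY2 (12.4 to 20.9), SPRY4 (7.67 to 17.3) and SPRED2 (38.6 to 61.0), no group stood wholly apart from the next in order of the means. SPRED1 was between 57.5 and 65.7 CPM in 5 groups and between 36.1 and 48.8 CPM in AID-TPR, old AID-TPR and RANGAP1-AID cells. Only AID-TPR libraries carry a label for a set, and the labels do not say which of the other lines were prepared together. The lines also fall into sets by the genes that hold counts, given below, and the part of this in the levels was not tested. Differences in level between lines and between preparations therefore cannot be told apart. In total RNA from a culture, fewer expressing cells and less RNA per cell cannot be told apart either.

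**Figure D1:**
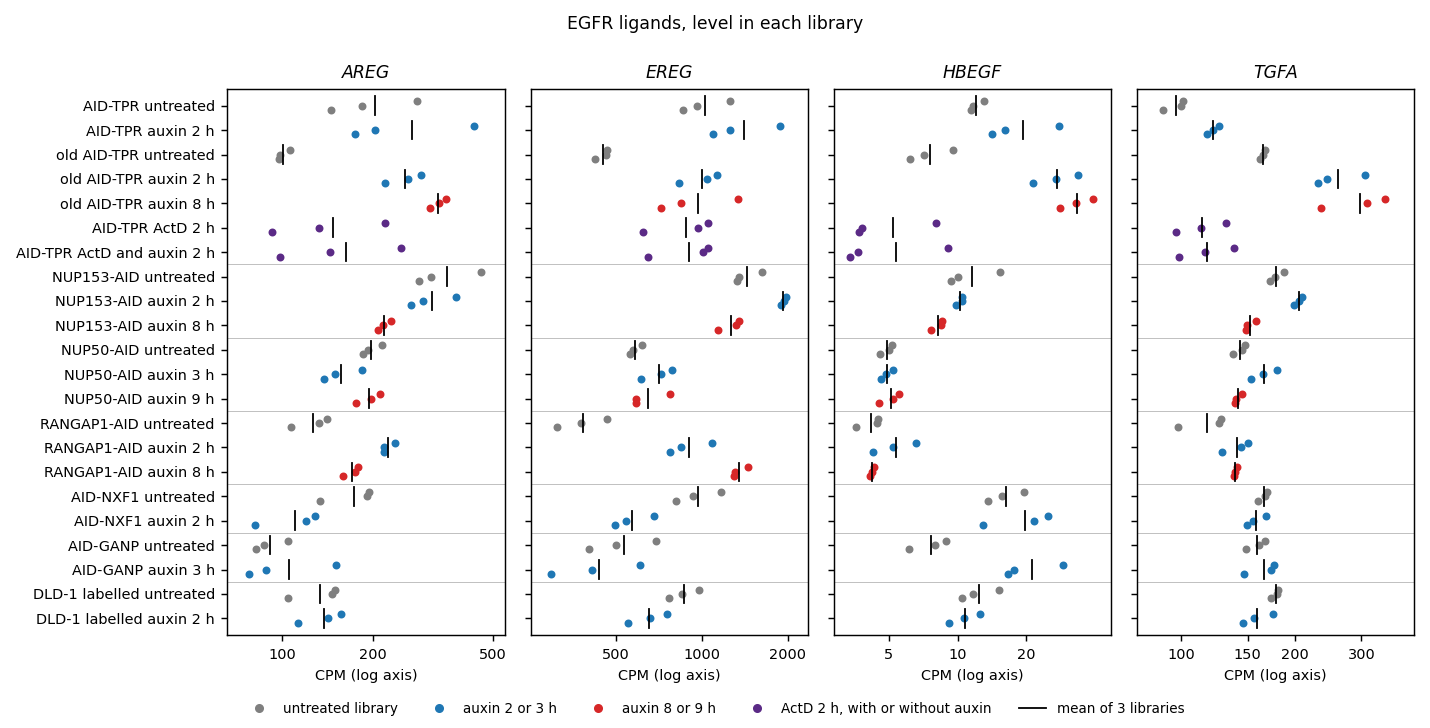
Levels of the 4 ligands in each of the 66 libraries, in TMM-normalized CPM on a log axis, with 1 point per library and a bar at the group mean. In the old AID-TPR rows all auxin libraries lie right of the untreated ones for AREG, EREG, HBEGF and TGFA, as the RANGAP1-AID rows do for AREG and EREG.

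**Figure D2:**
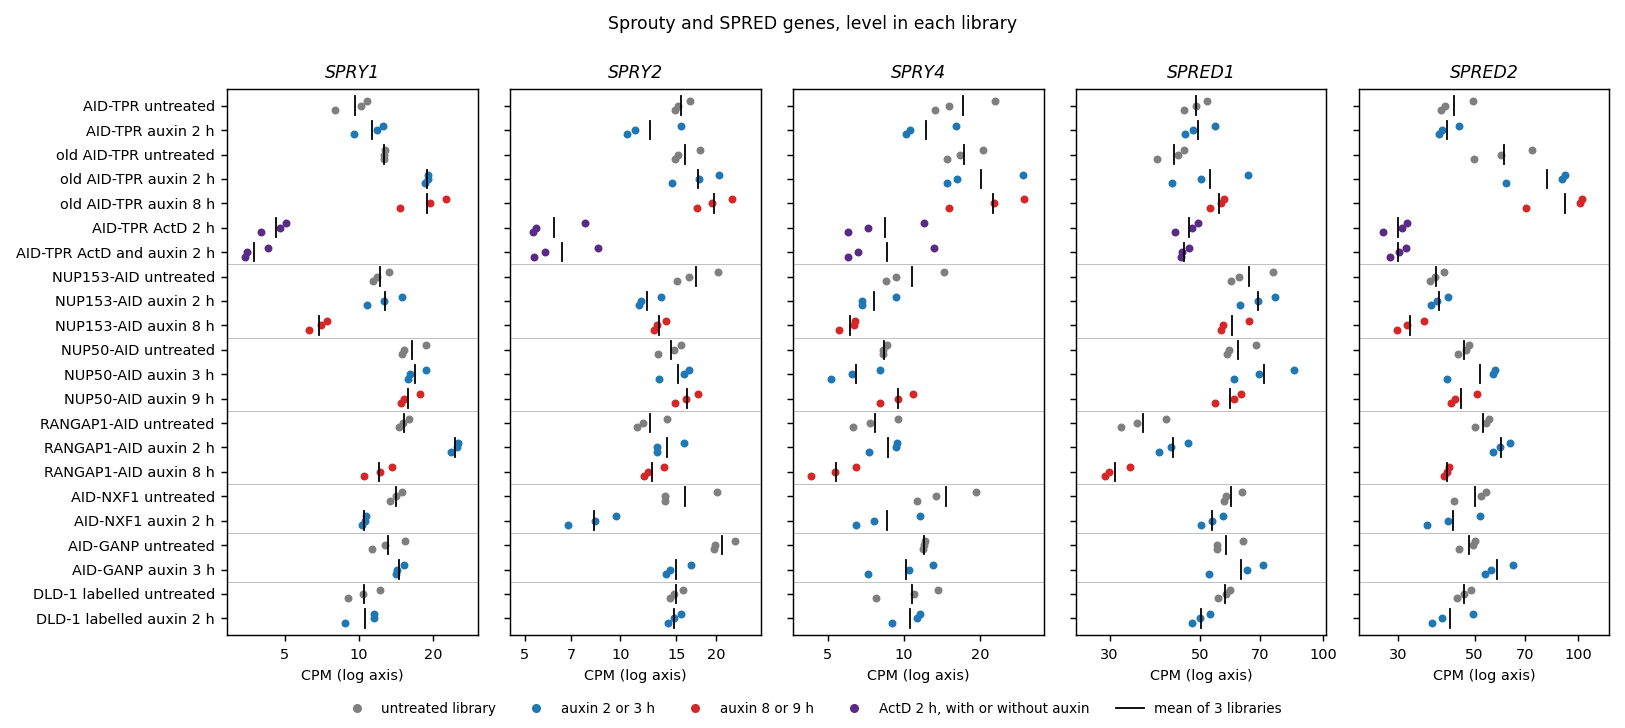
Levels of SPRY1, SPRY2, SPRY4, SPRED1 and SPRED2 in each library, in CPM on a log axis, with 1 point per library and a bar at the group mean. The ActD rows lie left of all untreated rows for SPRY1, SPRY2 and SPRED2, and the ActD libraries overlap those of other groups for SPRED1.

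Loss of TPR addressed what the nuclear basket does to mRNA abundance. In the libraries labelled old, ligands were called higher and, in the main edgeR fit, no inhibitor was called. The difference between ligands and inhibitors was not tested. After 2 h AREG, EREG and HBEGF were called higher, and after 8 h all 4 ligands were. Genes were called where the adjusted p was below 0.05 and the fold reached 1.3 upwards (log2 0.38) or 0.7 downwards (log2 -0.51). Folds are relative to the composition of the libraries.

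HBEGF, a ligand that is also made by epithelia as a membrane-bound form, was at 9.55, 7.10 and 6.18 CPM in the untreated old AID-TPR libraries. It was at 21.4, 33.6 and 26.9 CPM after 2 h and at 39.3, 32.9 and 28.2 CPM after 8 h. No auxin library came near an untreated one, and the log2 fold changes were 1.84 ± 0.22 (SE, adjusted p = 0.0108) and 2.13 ± 0.20 (adjusted p = 0.0032). AREG was at 106, 98.7 and 97.5 CPM untreated, at 219, 287 and 261 CPM after 2 h and at 348, 330.3 and 309 CPM after 8 h. The 3 groups did not overlap, and AREG was 1.34 ± 0.13 higher on the log2 scale at 2 h (adjusted p = 0.0040) and 1.70 ± 0.10 at 8 h (adjusted p = 0.00018). EREG was at 466, 461 and 424 CPM untreated, at 1043, 833 and 1132 CPM after 2 h and at 847, 1339 and 721 CPM after 8 h. All auxin libraries were above the untreated ones, with a wider spread at 8 h (log2 fold changes of 1.15 ± 0.14, adjusted p = 0.0113, and 1.10 ± 0.21, adjusted p = 0.0314). TGFA, the ligand closest to EGF in its receptor binding, went from 167, 164 and 161 CPM to 243, 307 and 229.9 CPM at 2 h and to 346, 234 and 311 CPM at 8 h. Its libraries did not overlap at either time, and in the main edgeR fit only the 8 h value passed the test (log2 fold changes of 0.66 ± 0.13, adjusted p = 0.0745, and 0.84 ± 0.13, adjusted p = 0.017). At 2 h TGFA was called higher by DESeq2 (adjusted p = 0.0022), without the filter (0.0015) and in one fit over all libraries (1.0e-05).

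The 3 calls of 9 genes at 2 h stand beside 0.455% of all tested genes called, 0.146% higher, and the 4 calls at 8 h beside 3.61%, 1.25% higher and 2.36% lower. The 9 genes were chosen with earlier results of these data known, so the shares are given as a description. The median log2 fold change of the 4 ligands was 1.25 at 2 h and 1.4 at 8 h, that of the 5 inhibitors 0.29 and 0.38, and that of all genes 0. Of the inhibitors, SPRY1 was at 12.7, 12.6 and 12.7 CPM untreated and at 19.1, 19.1 and 18.6 CPM after 2 h, without overlap (log2 fold change of 0.58 ± 0.14, adjusted p = 0.138; 0.56 ± 0.17, adjusted p = 0.0929 at 8 h). SPRED2 had log2 fold changes of 0.41 ± 0.19 and 0.57 ± 0.17 at the same times (adjusted p = 0.427 and 0.091). Values of SPRY2, SPRY4 and SPRED1 lay between 0.13 and 0.38, none past the test. Other settings called 2 inhibitors higher. The shares above are those of the main edgeR fit, which called 81 genes at 2 h and 643 at 8 h. DESeq2 called more of all genes, 425 at 2 h and 1904 at 8 h. Shares for the fit without the filter and for the one fit over all libraries are not given. SPRY1 was called at 2 h and at 8 h by DESeq2 (adjusted p = 0.0085 and 0.028) and in one fit over all libraries (0.0018 and 0.00075). SPRED2 was called at 8 h by DESeq2 (0.037), without the filter (0.0154) and in the one fit (0.00051), and at 2 h in the one fit (0.0256).

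Several of these calls depended on single libraries. At 2 h, leaving out untreated old2 raised the adjusted p of AREG to 0.103 and those of EREG and HBEGF to 0.134, and leaving out untreated old3 raised that of EREG to 0.0539, with log2 fold changes of 1.11 to 1.80. At 8 h, AREG kept its call whichever library was left out. EREG lost it without auxin old3 (adjusted p = 0.0575) or any 1 of the untreated libraries (0.0997 to 0.137), TGFA without auxin old3 (0.0992) or any 1 of the untreated libraries (0.0689 to 0.105), and HBEGF without untreated old2 (0.0524). Without auxin old2 at 8 h, SPRY1 (0.69, adjusted p = 0.0064) and SPRED2 (0.71, adjusted p = 0.0085) were called higher. Between 8 h and 2 h none of the 9 genes differed by edgeR (0% of all genes, 48 at an unadjusted p under 0.05 and none by DESeq2), and AREG was 0.36 ± 0.13 higher on the log2 scale at 8 h.

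In the AID-TPR set that does not carry that label the log2 fold changes of the ligands were lower, those of SPRY2 and SPRY4 were below 0, and none of the 9 genes was called (0.511% of all genes; 4 of the 9 at an unadjusted p under 0.05). HBEGF was at 11.7, 13.1 and 11.5 CPM untreated and at 16.2, 27.7 and 14.1 CPM after 2 h. TGFA was at 99.7, 89.5 and 101 CPM untreated and at 126, 122 and 117 CPM after 2 h. For both, all auxin libraries were above the untreated ones (log2 fold changes of 0.68 ± 0.21, adjusted p = 0.277, and 0.33 ± 0.07, adjusted p = 0.0723). AREG was at 146, 280.5 and 183 CPM untreated and at 174, 432 and 203 CPM after auxin, so that replicate 2 was high in both groups. EREG was at 964, 1253 and 863 CPM and at 1250.2, 1877 and 1097 CPM (log2 fold changes of 0.40 ± 0.32 and 0.45 ± 0.19).

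Of the inhibitors, SPRY4 was at 13.3, 23.0 and 15.0 CPM untreated and at 10.6, 16.0 and 10.2 CPM after auxin (-0.49 ± 0.22, adjusted p = 0.532). SPRY2 was at 15.2, 16.6 and 14.8 CPM and at 11.1, 15.5 and 10.5 CPM (-0.33 ± 0.14, adjusted p = 0.501). Both overlapped between the groups through replicate 2. SPRY1 (0.22), SPRED1 (0.02) and SPRED2 (-0.06) did not pass the test either. Same-numbered libraries deviated together in this line, and with the replicate number as a block EREG (0.43, adjusted p = 1.8e-09) and HBEGF (0.64, adjusted p = 1.5e-07) were called higher. With that block AREG (0.34, adjusted p = 5.6e-06) and TGFA (0.33, adjusted p = 2.3e-06) were higher and SPRY4 (-0.48, adjusted p = 4.2e-06) and SPRY2 (-0.34, adjusted p = 0.0020) lower, all short of the fold limit. DESeq2 called HBEGF (adjusted p = 0.0291), and without the filter AREG, EREG and HBEGF were called.

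The difference between the auxin effects of both label sets did not pass its test for any of the 9 genes (0% of all genes, 574 at an unadjusted p under 0.05 and 5 by DESeq2). It was 1.16 ± 0.34 for HBEGF, 0.93 ± 0.41 for AREG and 0.69 ± 0.26 for EREG on the log2 scale, with adjusted p = 1 for each. Without the filter these 3 genes passed (adjusted p = 4.3e-05 to 0.0056). When all 6 pairs were fitted with a term for the label, HBEGF (1.24, adjusted p = 0.0074), EREG (0.80, adjusted p = 0.0112), TGFA (0.49, adjusted p = 0.0043) and SPRY1 (0.40, adjusted p = 0.0484) were called higher, and AREG was at 0.87 (adjusted p = 0.0585).

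**Figure D3:**
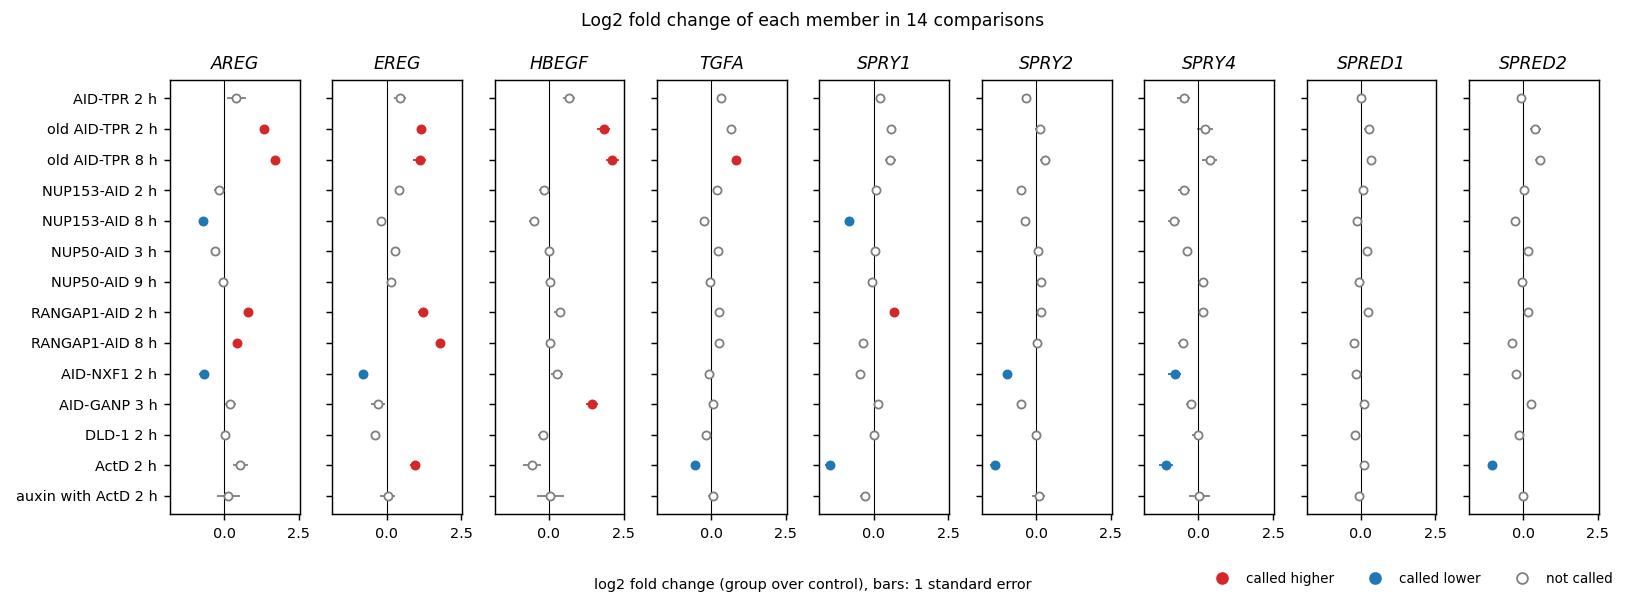
Log2 fold changes of the 9 genes in the 14 comparisons with the untreated or ActD control, with the standard error as a bar and filled points for calls. The 4 ligands lie right of 0 in both old AID-TPR comparisons, and SPRY1, SPRY2, SPRY4 and SPRED2 lie left of 0 with ActD alone.

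Loss of NUP153, the basket protein next to TPR, did not raise the ligands as a group. At 2 h no gene of the 9 was called (0.0393% of all genes, 0.0337% higher and 0.00561% lower; 4 of the 9 at an unadjusted p under 0.05), and at 8 h AREG and SPRY1 fell (1.34% of all genes called, 0.41% lower). All 9 log2 fold changes were below 0 at 8 h, and for 7 genes the auxin libraries were all below the untreated ones.

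AREG in NUP153-AID cells was at 312, 283 and 457 CPM untreated, at 294, 268 and 378 CPM after 2 h and at 208, 229 and 216 CPM after 8 h. The 8 h libraries were below all others (log2 fold change of -0.69 ± 0.15, adjusted p = 0.0466), and at 2 h the groups overlapped (-0.16 ± 0.18, adjusted p = 1). SPRY1 was at 11.9, 11.4 and 13.3 CPM untreated, at 12.6, 10.7 and 14.9 CPM after 2 h and at 7.04, 6.28 and 7.42 CPM after 8 h. Here too the 8 h libraries were the lowest (-0.82 ± 0.12, adjusted p = 0.0107). SPRY4 fell short of the test at 8 h with a log2 fold change of the same size (-0.82 ± 0.19, adjusted p = 0.0629; called by DESeq2, adjusted p = 0.0013), at 8.51, 9.31 and 14.4 CPM untreated and 6.36, 5.52 and 6.41 CPM after 8 h. HBEGF (-0.50), SPRY2 (-0.38), SPRED2 (-0.26), TGFA (-0.24), EREG (-0.18) and SPRED1 (-0.14) did not pass the test. The call of AREG was lost without auxin replicate 2 or 3 (adjusted p = 0.150 and 0.181), without untreated replicate 1 (0.0891) and in one fit over all libraries (0.182), and without untreated replicate 3, the highest library, its log2 fold change was -0.46 (adjusted p = 0.0129), short of the fold limit. The call of SPRY1 was lost without auxin replicate 2 (adjusted p = 0.0589) or untreated replicate 1 (0.0566).

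EREG moved otherwise with time. It was at 1332, 1353 and 1628 CPM untreated, at 1888, 1939 and 1963 CPM after 2 h and at 1138, 1314 and 1354 CPM after 8 h. At 2 h all auxin libraries were above the untreated ones (log2 fold change of 0.43 ± 0.08, adjusted p = 0.168), a difference that was called with the replicate number as a block (0.43, adjusted p = 6.6e-08), since same-numbered libraries deviated together, without untreated replicate 3 (0.52, adjusted p = 0.0102), without the filter and by DESeq2 (0.42, adjusted p = 0.00061). SPRY2, an inhibitor of RAS activation, was at 16.4, 15.0 and 20.3 CPM untreated and at 11.6, 11.5 and 13.4 CPM after 2 h, all lower (-0.50 ± 0.12, adjusted p = 0.547). At 2 h SPRY4 had a log2 fold change of -0.49, and HBEGF (-0.18), TGFA (0.20), SPRY1 (0.07), SPRED1 (0.08) and SPRED2 (0.03) were nearer to 0, none past the test without the block. In the fit with the replicate number as a block, SPRY2 (-0.50, adjusted p = 1.2e-05) and SPRY4 (-0.48, adjusted p = 0.0004) were lower. TGFA was higher in that fit (0.20, adjusted p = 0.0068), and all of these were short of the fold limit. Between 2 h and 8 h 4 genes fell (3.07% of all genes differed, 1.64% lower and 1.42% higher), namely EREG (-0.62 ± 0.07, adjusted p = 0.0022), TGFA (-0.45 ± 0.06, adjusted p = 0.0038), SPRY1 (-0.90 ± 0.14, adjusted p = 0.0080) and AREG (-0.54 ± 0.11, adjusted p = 0.0278). The last was lost without auxin 2 h replicate 1 or auxin 8 h replicate 2 or 3 (adjusted p = 0.0837 to 0.136). In one fit over all libraries AREG and EREG lost this difference (0.348 and 0.114).

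The auxin effect at 2 h did not differ between NUP153-AID and AID-TPR cells for any of the 9 genes (0.646% of all genes). With the replicate number as a block in both lines, the effect was lower in NUP153-AID cells for HBEGF (-0.79) and AREG (-0.48), which also passed without the filter.

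Loss of NUP50, which binds to NUP153 at the basket, left all 9 genes without a call at 3 h (0.219% of all genes; 4 of the 9 at an unadjusted p under 0.05) and at 9 h (0.371%; none of the 9 at an unadjusted p under 0.05). AREG was at 192, 186 and 214 CPM untreated, at 149, 138 and 183 CPM after 3 h and at 210.1, 176 and 196 CPM after 9 h. The 3 h libraries were all below the untreated ones (log2 fold change of -0.32 ± 0.10, adjusted p = 0.496). TGFA was all higher at 3 h (0.23 ± 0.08, adjusted p = 0.584) and SPRY4 all lower (-0.36 ± 0.16, adjusted p = 0.799). EREG (0.29), SPRED1 (0.22), SPRED2 (0.16), SPRY2 (0.08), SPRY1 (0.06) and HBEGF (0.01) overlapped between the groups. At 9 h the log2 fold changes lay between -0.07 and 0.17, with standard errors of 0.06 to 0.14. No gene of the 9 differed between 9 h and 3 h (0.331% of all genes) or in its auxin effect from AID-TPR cells (0.124%). Without the filter AREG and SPRY4 differed between 9 h and 3 h (0.30 and 0.55) and AREG from AID-TPR cells (-0.74).

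Loss of RANGAP1, without which the gradient of Ran-GTP across the nuclear envelope is not maintained, raised AREG and EREG at both times and SPRY1 at 2 h. The 3 genes called at 2 h, all higher, stand beside 0.589% of all genes called and 0.483% called higher. At 8 h the 2 called genes stand beside 14.9% called, 8.26% higher and 6.62% lower.

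EREG was at 312, 378 and 467 CPM in untreated RANGAP1-AID cells, at 774, 846 and 1083 CPM after 2 h and at 1305, 1295 and 1449 CPM after 8 h. The groups did not overlap and followed each other in time (log2 fold changes of 1.22 ± 0.17, adjusted p = 0.0099, and 1.80 ± 0.13, adjusted p = 1.6e-05). AREG was at 107, 141 and 133 CPM untreated, at 218, 217 and 236 CPM after 2 h and at 159, 174 and 179 CPM after 8 h. It was highest at 2 h (0.81 ± 0.11, adjusted p = 0.0099) and lower at 8 h, still above all untreated libraries (0.42 ± 0.10, adjusted p = 0.0111). SPRY1 was at 14.6, 15.1 and 16.0 CPM untreated, at 24.9, 23.7 and 25.3 CPM after 2 h and at 13.7, 12.1 and 10.5 CPM after 8 h. It was above all untreated libraries at 2 h (0.68 ± 0.09, adjusted p = 0.0071) and below all of them at 8 h (-0.34 ± 0.11, adjusted p = 0.0384, short of the fold limit). HBEGF stayed low, at 4.49, 4.44 and 3.59 CPM untreated, 6.60, 5.23 and 4.28 CPM after 2 h and 4.32, 4.12 and 4.23 CPM after 8 h (0.36 ± 0.17, adjusted p = 0.762, and 0.02 ± 0.13, adjusted p = 0.932).

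Among the other inhibitors at 8 h, SPRED2 was at 50.1, 54.1 and 55.0 CPM untreated and at 40.7, 42.2 and 41.6 CPM, all lower (-0.36 ± 0.07, adjusted p = 0.0033, short of the fold limit). SPRY4 was at 7.30, 6.25 and 9.45 CPM untreated and at 5.31, 4.29 and 6.48 CPM (-0.52 ± 0.18, adjusted p = 0.0569). Same-numbered libraries deviated together in RANGAP1-AID cells, and with the replicate number as a block SPRY4 was called lower (-0.52, adjusted p = 1.0e-05); it was also called without auxin replicate 3 (-0.68, adjusted p = 0.0253) or untreated replicate 2 (-0.64, adjusted p = 0.0423). DESeq2 called SPRY4 as well (adjusted p = 0.0299). SPRY2, TGFA and SPRED1 had log2 fold changes of 0.02, 0.24 and -0.23 at 8 h. At 2 h TGFA (0.26), SPRED1 (0.24), SPRY2 (0.17), SPRED2 (0.16) and SPRY4 (0.16) did not pass the test. The block put TGFA (adjusted p = 0.00045), SPRED1 (0.0069) and SPRED2 (0.033) past the adjusted p at 2 h. It did so for TGFA (1.0e-05) and SPRED1 (0.00055) at 8 h, all short of the fold limit. At 2 h the call of AREG was lost without auxin replicate 2 (adjusted p = 0.0701), that of EREG without auxin replicate 2 (0.065) or untreated replicate 2 (0.0835) and that of SPRY1 without untreated replicate 2 (0.0659). At 8 h the log2 fold change of AREG was 0.31 without untreated replicate 1 (adjusted p = 0.0173), short of the fold limit. In one fit over all libraries AREG lost its call at 2 h (0.82, adjusted p = 0.196) and at 8 h (0.43, adjusted p = 0.264).

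From 2 h to 8 h of RANGAP1 loss 6 of the 9 genes differed (15.2% of all genes). EREG rose further (0.58 ± 0.12, adjusted p = 0.0086). The other 5 fell, namely SPRY1 (-1.03 ± 0.11, adjusted p = 0.00023), SPRY4 (-0.68 ± 0.16, adjusted p = 0.017), SPRED2 (-0.53 ± 0.07, adjusted p = 0.0013), SPRED1 (-0.47 ± 0.09, adjusted p = 0.0063) and AREG (-0.39 ± 0.08, adjusted p = 0.0072). EREG lost this difference without auxin 2 h replicate 2 (adjusted p = 0.0523), and SPRY4 without auxin 8 h replicate 1 or 2 (0.0507 and 0.0717). In one fit over all libraries AREG, EREG and SPRY4 lost it (0.0602 to 0.366). HBEGF was lower at 8 h with the replicate number as a block (-0.32, adjusted p = 0.0306) and without auxin 2 h replicate 3 (-0.49, adjusted p = 0.0409), which made 7 of the 9 genes with the block. At 2 h the auxin effect did not differ from that in AID-TPR cells for any of the 9 genes (0.298% of all genes). With the replicate number as a block it was higher in RANGAP1-AID cells for EREG (0.79), SPRY4 (0.64), SPRY2 (0.52), AREG (0.48) and SPRY1 (0.46), and without the filter for EREG (0.77).

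Loss of NXF1, the receptor that carries most mRNA out of the nucleus, lowered AREG, EREG, SPRY2 and SPRY4, and none of the 9 genes was called higher by edgeR with all libraries. The 4 calls stand beside 8.16% of all genes called, 5.93% lower and 2.22% higher. Among the 9 genes, HBEGF alone had a log2 fold change above 0.

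EREG was at 815, 1166 and 929 CPM in untreated AID-NXF1 cells and at 496, 678 and 543 CPM after 2 h, without overlap (log2 fold change of -0.78 ± 0.13, adjusted p = 0.0012). AREG went from 134, 193 and 190.3 CPM to 81.5, 128 and 120.0 CPM, also without overlap (-0.67 ± 0.16, adjusted p = 0.0118). SPRY2 had the lowest ratio of the 9 genes, at 13.8, 13.8 and 20.1 CPM untreated and 6.85, 8.34 and 9.68 CPM after auxin (-0.96 ± 0.16, adjusted p = 0.0014). SPRY4 overlapped between the groups, at 11.2, 13.4 and 19.2 CPM and 6.44, 7.58 and 11.6 CPM (-0.79 ± 0.22, adjusted p = 0.0256). SPRY1 was at 13.3, 15.0 and 14.2 CPM untreated and at 10.3, 10.6 and 10.7 CPM after auxin, all lower but short of the fold limit (-0.45 ± 0.08, adjusted p = 0.0025). HBEGF was at 13.7, 15.6 and 19.5 CPM and at 12.9, 25.0 and 21.7 CPM (0.27 ± 0.20, adjusted p = 0.365). TGFA, SPRED1 and SPRED2 had log2 fold changes of -0.09, -0.17 and -0.23, none past the test. In the fit with the replicate number as a block, TGFA (adjusted p = 0.047), SPRED1 (0.0024) and SPRED2 (0.0011) were lower. HBEGF was higher in that fit (0.24, adjusted p = 0.041), and all of these were short of the fold limit.

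EREG and SPRY2 kept their calls whichever library was left out. AREG was short of the fold limit without auxin replicate 1 (-0.50, adjusted p = 0.0279) and lost its call without untreated replicate 2 (-0.58, adjusted p = 0.0626), and SPRY4 lost its call without auxin replicate 1 or 2 or untreated replicate 2 or 3 (adjusted p = 0.0571 to 0.0943). SPRY4 was not called by DESeq2 (adjusted p = 0.0856), and in one fit over all libraries neither SPRY4 (0.0738) nor AREG (0.116) was. Without auxin replicate 1, HBEGF was called higher (0.49, adjusted p = 0.0294).

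Set against AID-TPR cells without the label old, the auxin effect at 2 h was lower in AID-NXF1 cells for EREG (-1.24 ± 0.27, adjusted p = 0.0216), TGFA (-0.43 ± 0.09, adjusted p = 0.0172) and SPRY1 (-0.68 ± 0.17, adjusted p = 0.0461), beside 2.28% of all genes that differed. These differences depended on single libraries. TGFA lost it without AID-NXF1 auxin replicate 1 or 2 (adjusted p = 0.0544 and 0.0560), EREG without AID-NXF1 auxin replicate 1, AID-NXF1 untreated replicate 2 or AID-TPR untreated replicate 1 or 3 (0.0519 to 0.0732), and SPRY1 without any 1 of 10 of the 12 libraries (0.0595 to 0.130). SPRY1 also lost it with RLE normalization (0.0619), library totals alone (0.0579) and one fit over all libraries (0.0749), and TGFA with the one fit (0.291). Same-numbered libraries deviated together in both lines, and with the replicate number as a block 7 of the 9 genes differed, AREG (-1.03), SPRY2 (-0.62), SPRY4 (-0.32) and SPRED1 (-0.20) in addition. Without the filter AREG and SPRY2 were also lower.

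Loss of GANP, which links TREX-2 to the pore, raised HBEGF and called no other gene of the 9, beside 15.5% of all genes called and 3.97% called higher. HBEGF was at 8.86, 7.99 and 6.15 CPM untreated and at 16.6, 29.0 and 17.6 CPM after 3 h. All auxin libraries were above the untreated ones, and the log2 fold change was 1.45 ± 0.21 (adjusted p = 0.00053), a call that was kept whichever library was left out. SPRY2 fell from 19.7, 23.0 and 19.9 CPM to 13.9, 16.7 and 14.4 CPM, past the adjusted p and short of the fold limit (-0.49 ± 0.10, adjusted p = 0.0042), and past the limit without auxin replicate 2 (-0.57) or untreated replicate 3 (-0.52). SPRED2 was higher by less than the limit, from 44.9, 50 and 49.4 CPM to 53.6, 64.7 and 56.0 CPM (0.26 ± 0.08, adjusted p = 0.0427). AREG, at 87, 105 and 82.0 CPM untreated and 77.5, 151 and 88.4 CPM after auxin, and EREG, at 502, 692 and 405 CPM and 412, 607 and 297 CPM, overlapped between the groups (0.20 ± 0.20 and -0.29 ± 0.24), as did SPRY4 (-0.25), SPRY1 (0.14), SPRED1 (0.11) and TGFA (0.05). Same-numbered libraries deviated together in AID-GANP cells. In the fit with the replicate number as a block, EREG (-0.32, adjusted p = 2.3e-10) and SPRY4 (-0.26, adjusted p = 0.0030) were lower. AREG was higher in that fit (0.15, adjusted p = 0.010), and all of these were short of the fold limit. With library totals alone SPRY2 was called lower (-0.60, adjusted p = 0.0018).

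The auxin effect in AID-GANP cells did not differ from that in AID-TPR cells for any of the 9 genes (5.77% of all genes), and with the replicate number as a block it was higher for HBEGF (0.79) and SPRED2 (0.31) and lower for EREG (-0.76) and TGFA (-0.29). HBEGF and EREG also passed without the filter. Without AID-TPR auxin replicate 2, in which HBEGF was high, HBEGF differed as well (1.12, adjusted p = 0.0301). Set against AID-NXF1 cells, SPRY1 was higher by 0.62 ± 0.14 (adjusted p = 0.0247; 2.62% of all genes differed), a difference lost without any 1 of 7 of the 12 libraries (adjusted p = 0.0508 to 0.0805), with library totals alone (0.0685) and in one fit over all libraries (0.155). All 9 differences between AID-GANP and AID-NXF1 cells were above 0, and with the replicate number as a block all 9 passed the test, HBEGF (1.24), AREG (0.87) and EREG (0.50) among them. The auxin times of these lines, 3 h and 2 h, differ.

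**Figure D4:**
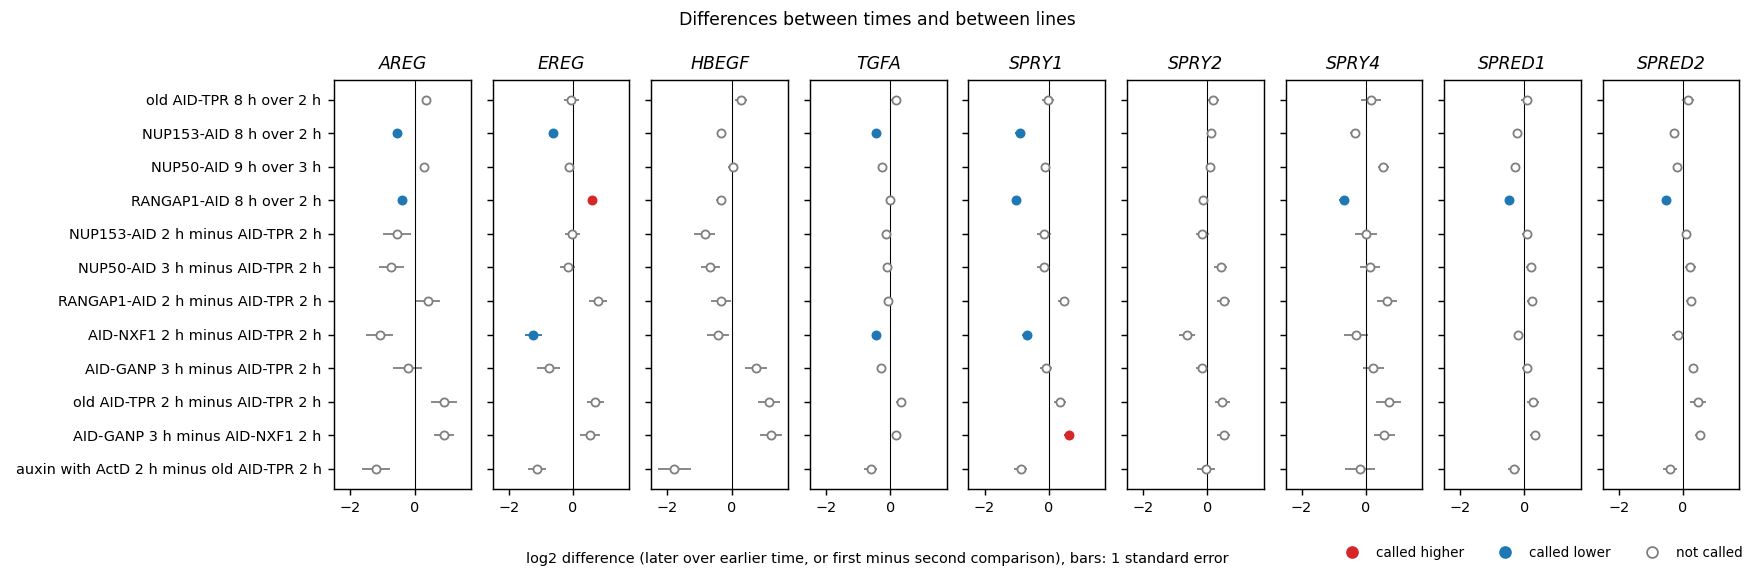
Differences in log2 fold change of the 9 genes between times of 1 line and between lines, with the standard error as a bar and filled points for an adjusted p under 0.05. The filled points are those of NUP153-AID and RANGAP1-AID cells between 8 h and 2 h, of AID-NXF1 against AID-TPR cells and of SPRY1 in AID-GANP against AID-NXF1 cells.

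In parental DLD-1 cells, which have no degron, none of the 9 genes was called between the libraries labelled auxin and those labelled untreated (0.0561% of all genes; 3 of the 9 at an unadjusted p under 0.05). EREG was at 769, 977 and 855 CPM in the libraries labelled untreated and at 552, 756 and 659 CPM in those labelled auxin, all lower (-0.40 ± 0.11, adjusted p = 0.921). SPRED1 was also all lower (-0.20 ± 0.06, adjusted p = 1). The other 7 log2 fold changes lay between -0.20 and 0.04. With the replicate number as a block, EREG (-0.41, adjusted p = 1.2e-07), SPRED1 (adjusted p = 0.0218) and TGFA (adjusted p = 0.0432) were past the test. All were short of the fold limit, and not all same-numbered libraries deviated together in this line. The directions rest on the labels that are in doubt.

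Actinomycin D, which stops RNA synthesis, lowered 3 Sprouty genes and SPRED2. Compared with the untreated old AID-TPR libraries, 5 of the 9 genes fell after 2 h (SPRY1, SPRY2, SPRY4, SPRED2 and TGFA) and EREG was higher, beside 21.1% of all genes called, 12.3% lower and 8.79% higher. Here too folds are relative to the composition of the libraries, so that a higher value need not mean more RNA of that gene. The ActD libraries do not carry the label old, so that this label and the treatment cannot be told apart, and values are given against both sets of untreated AID-TPR libraries.

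SPRY1 was at 4.78, 5.06 and 4.0 CPM with ActD, at 12.7, 12.6 and 12.7 CPM in the untreated old libraries and at 10.2, 7.98 and 10.8 CPM in those without the label. SPRY2 was at 5.45, 7.76 and 5.31 CPM with ActD, against 15.1, 14.9 and 17.8 CPM and 15.2, 16.6 and 14.8 CPM. In both genes the ActD libraries were below all untreated ones of either set. The log2 fold changes against the old libraries were -1.47 ± 0.15 (adjusted p = 0.0002) for SPRY1 and -1.38 ± 0.17 (adjusted p = 0.00061) for SPRY2. Against the other set they were -1.12 ± 0.16 (adjusted p = 0.00028) and -1.38 ± 0.15 (adjusted p = 4.9e-05). SPRY4 was at 7.20, 12.0 and 6.01 CPM with ActD, below the untreated old libraries at 14.8, 16.7 and 20.5 CPM (-1.07 ± 0.23, adjusted p = 0.0097), and below the other set as well (-1.09 ± 0.28, adjusted p = 0.0087). SPRED2 was at 27.2, 30.7 and 31.7 CPM with ActD and at 49.8, 59.6 and 73.5 CPM untreated (-1.03 ± 0.15, adjusted p = 0.0012), and at -0.58 ± 0.11 against the other set (adjusted p = 0.0015). SPRED1 was at 43.5, 47.8 and 49.4 CPM with ActD and at 39.2, 45.8 and 44.2 CPM untreated (0.12 ± 0.11, adjusted p = 0.473), and at -0.10 ± 0.08 against the other set.

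The ligands depended on which untreated set served as control. EREG was at 622, 967 and 1049 CPM with ActD, above the untreated old libraries at 466, 461 and 424 CPM (0.96 ± 0.17, adjusted p = 0.0037), and overlapped the untreated libraries without the label, at 964, 1253 and 863 CPM (-0.26 ± 0.20, adjusted p = 0.283). TGFA was at 113, 131 and 96.6 CPM with ActD, below the old libraries (-0.54 ± 0.11, adjusted p = 0.0080) and at 0.19 ± 0.11 against the others (adjusted p = 0.179). Without ActD replicate 3 it was short of the fold limit against the old libraries (-0.45, adjusted p = 0.0164). HBEGF was at 3.81, 8.09 and 3.71 CPM with ActD (-0.57 ± 0.29, adjusted p = 0.178), and was called lower against the other set (-1.28 ± 0.27, adjusted p = 0.0032) and without ActD replicate 2 (-1.01, adjusted p = 0.0112). AREG was at 92.3, 219 and 132 CPM with ActD (0.55 ± 0.24, adjusted p = 0.119; -0.50 ± 0.31, adjusted p = 0.202 against the other set), and was called higher without ActD replicate 1 (0.79, adjusted p = 0.0201). In the comparison with the set without the label, 43.8% of all genes were called and 31% were called lower. The libraries of that set hold no counts on mitochondrial genes, unlike the ActD and old libraries, and hold counts on RMRP where those have none. The part of this difference in the values of the 9 genes was not tested.

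Auxin added to ActD changed none of the 9 genes (0% of all genes by edgeR and by DESeq2, 78 at an unadjusted p under 0.05). EREG was at 647, 1054 and 1009 CPM with both agents (0.03 ± 0.24), HBEGF at 3.37, 9.06 and 3.68 CPM (0.05 ± 0.46) and AREG at 98.7, 247 and 144 CPM (0.14 ± 0.39), all overlapping ActD alone and with adjusted p = 1. SPRY1, at 3.45, 4.26 and 3.52 CPM, had the largest log2 fold change (-0.30 ± 0.16, adjusted p = 1), and TGFA, SPRY2, SPRY4, SPRED1 and SPRED2 lay between -0.04 and 0.09. The auxin effect with ActD was below that in old AID-TPR cells at 2 h by 1.79 ± 0.52 for HBEGF (adjusted p = 0.365), 1.2 ± 0.43 for AREG (0.561), 1.11 ± 0.29 for EREG (0.267) and 0.87 ± 0.20 for SPRY1 (0.191), and none passed the test (0.0225% of all genes). Other settings gave differences past the test in the same direction. DESeq2 gave EREG (adjusted p = 0.0388) and SPRY1 (0.0040), one fit over all libraries gave EREG (0.0291), HBEGF (0.0038), TGFA (0.0123) and SPRY1 (0.0068), and the fit without the filter gave AREG (8.5e-07), EREG (1.9e-06) and HBEGF (1.3e-07). Set against AID-TPR cells without the label, the differences were -0.63 for HBEGF, -0.27 for AREG and -0.42 for EREG (adjusted p = 1).

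Over the 14 comparisons, EREG (5 higher, 1 lower) and AREG (4 higher, 2 lower) had the most calls, and equally many. HBEGF (3 higher) and SPRY1 (1 higher, 2 lower) followed. SPRY2 and SPRY4 were called lower in 2 each, TGFA higher in 1 and lower in 1, SPRED2 lower in 1 and SPRED1 in none. Between 0% and 21.1% of all genes were called in these comparisons. The early and late times of a line share their untreated libraries, so calls at both are not independent. EREG called higher and TGFA called lower with ActD were at -0.26 and 0.19 against the set without the label old, neither called. The ligands were not called together outside AID-TPR cells: HBEGF without AREG and EREG in AID-GANP cells, and AREG and EREG without HBEGF in RANGAP1-AID cells (both higher) and AID-NXF1 cells (both lower). For HBEGF against AREG and EREG within a line no test was made.

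The rest of the pathway was followed in 7 lists of 55 genes, of which 49 passed the filter. EGF, EPGN, NRG1, NRG2, NRG3 and ERBB4 did not. The receptors EGFR, ERBB2 and ERBB3 were called in none of the 14 comparisons. Of 18 genes of the RAS and ERK cascade, none was called in 10 of the comparisons, and 1 was in old AID-TPR at 8 h (higher), AID-NXF1 (lower) and AID-GANP cells (lower), and 2 with ActD alone (higher). Of 7 receptor-level inhibitors at most 2 were called in any comparison, and of the tested genes for ligand shedding (4), other ligands (2) and other Sprouty and SPRED genes (2) at most 1. The 13 transcripts known to respond to ERK are given beside the share of all genes called. The lists were chosen with earlier results of these data known. This list holds FOS and EGR1, which the study names among the top transcripts raised by TPR loss. The counts are therefore a description and not a test of the pathway. In old AID-TPR cells 4 of them were called higher and none lower at 2 h (0.455% of all genes), and 6 and none at 8 h (3.61%), with medians of 0.78 and 0.67 on the log2 scale where the median of all genes was 0. In AID-TPR cells without the label old 1 was called higher (0.511%). AID-GANP cells had 6 higher and 1 lower, where 15.5% of all genes were called, and AID-NXF1 cells 2 higher and 1 lower, where 8.16% were. RANGAP1-AID cells had 1 higher and 1 lower at 2 h (0.589%) and 1 higher and 4 lower at 8 h (14.9%). NUP153-AID cells had 1 lower at 2 h (0.0393%) and 1 higher and 3 lower at 8 h (1.34%), ActD alone had 2 higher and 5 lower (21.1%), and NUP50-AID cells, DLD-1 cells (0.0561% to 0.371%) and auxin with ActD (0%) had none.

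FOS, a transcription factor gene induced within minutes of ERK activation, was called higher in AID-TPR cells with (2.80 at 2 h, 2.85 at 8 h) and without the label old (1.3, adjusted p = 0.041), in AID-NXF1 (2.26), AID-GANP (2.66) and NUP153-AID cells at 8 h (1.68), and lower in RANGAP1-AID cells at 2 h (-0.89) and 8 h (-1.35). It was thus higher in AID-NXF1 cells, where AREG and EREG were lower, and lower in RANGAP1-AID cells, where both were higher. The level of FOS was low in RANGAP1-AID cells, with means of 3.57 CPM untreated, 1.95 CPM at 2 h and 1.42 CPM at 8 h. In AID-NXF1 cells the means were 17.0 CPM untreated and 82.2 CPM after auxin. DUSP6, the ERK phosphatase, was higher in RANGAP1-AID cells at 2 h (1.08) and lower in NUP153-AID cells at 8 h (-0.88). ERRFI1, which binds and inhibits EGFR, was higher in RANGAP1-AID cells at 2 h (1.06). EGR1, another immediate early gene, was higher in old AID-TPR (2.49 at 2 h, 2.43 at 8 h), AID-NXF1 (1.37) and AID-GANP cells (2.22) and lower in NUP153-AID cells at 2 h (-0.81). IER3 was higher in old AID-TPR (2.19 and 2.14) and AID-GANP cells (1.41) and lower in NUP153-AID cells at 8 h (-1.0). At 8 h of RANGAP1 loss SOCS5 was higher (0.88) and the ERK phosphatase DUSP5 lower (-0.85). NRG4, an ERBB4 ligand, was higher in AID-NXF1 cells (0.94), at low means of 1.15 CPM untreated and 2.24 CPM after auxin. With ActD alone PHLDA1 (-1.32), DUSP4 (-1.27) and LRIG3 (-1.24) were lower.

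Genes whose log2 fold changes across the 11 auxin comparisons of tagged lines were most like those of each of the 8 genes with a call were ranked by Pearson's r over these comparisons among 14632 genes. Some of the comparisons share controls, and r is given as a description. For AREG they were PTPRE (0.98), F3 (0.97) and OSGIN2 (0.97); for EREG RASSF3 (0.98), FAM13B (0.97) and UBE2W (0.97); for HBEGF ZNF558 (0.99), SLC25A25 (0.98) and BECN1 (0.97); and for TGFA RASA2 (0.97), APC (0.96) and ZNF292 (0.96). Among the inhibitors, SPRY1 was most like ST3GAL1 (0.94), SPRY2 like C3orf52 (0.96), SPRY4 like TNFRSF10B (0.92) and SPRED2 like HK2 (0.97).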

How the data were processed

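RNA-seq libraries of DLD-1 cells (66, in 22 groups of 3) were analysed. The authors depleted total RNA of ribosomal RNA, sequenced it as paired ends, mapped reads to GRCh38 with STAR 2.6.1c and counted them with featureCounts 1.5.2, per the submitters' processing notes (the study's methods name earlier versions), and deposited raw counts of 58051 Ensembl genes per library, without normalization. Symbols, positions and exon lengths were read from GENCODE release 44, which holds 56948 of these identifiers. Totals of 18943661 to 55411411 reads gave at least 91 counts for each of the 9 genes in every library, and replicates differed by more than counting noise (chi-square per degree of freedom of 4.07 to 67.4 over 66 pairs). The libraries fall into 3 sets by the genes that hold counts, since 24 have none on 37 mitochondrial genes, 33 have these counts and none on RMRP, and 9 have both.

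The filter kept 17812 genes, those that exceeded 1 CPM in more than 5% of the libraries other than ActD (60). Groups were compared by edgeR's quasi-likelihood test (edgeR 4.0.16, limma 3.58.1, R 4.3.3) on the counts of the groups compared, with TMM normalization and Benjamini-Hochberg adjustment over all tested genes. Genes were called at an adjusted p below 0.05 with a fold reaching 1.3 upwards or 0.7 downwards; differences between times and lines needed the adjusted p only. The standard error is the log2 fold change over the square root of F. Printed CPM use TMM factors over all libraries, and RPKM the union of exons. The test was tried on simulated data. Python 3.11.15, numpy 2.4.6, pandas 2.3.3 and matplotlib 3.10.9 made tables and figures.

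All 9 genes are given in every comparison with a control, by value or as a range, and differences between times and lines are given for those past the test. Other pathway genes came from lists, with up to 3 calls of largest change named per comparison. The 9 genes and the lists were chosen with earlier results of these data known. Same-numbered libraries were taken as paired where the residuals of all 3 pairs correlated above 0.1 over genes averaging 50 counts or more (7 of 13 comparisons: AID-TPR 2 h, NUP153-AID 2 h, RANGAP1-AID 2 h and 8 h, AID-NXF1, AID-GANP and auxin with ActD). Alternatives were RLE normalization, library totals alone, DESeq2 1.42.0, no filter, filterByExpr, the replicate number as a block, one fit over all libraries, a fold of 1.3 in both directions, all 6 AID-TPR pairs and each library left out. Untreated AID-TPR libraries without the label old as the control of ActD were added after seeing the data.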

Additional observations from a re-analysis of the deposited data

Results flagged for a closer look

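Each result here was singled out because 2 effects under the same contrast differed by a test of the difference itself, an adjusted p under 0.05 for auxin times of 1 line or for the auxin effects of 2 lines. In NUP153-AID cells 4 genes were lower after 8 h than after 2 h of auxin, AREG by a log2 value of -0.5401, EREG by -0.6188, TGFA by -0.4452 and SPRY1 by -0.898. At 2 h none of these was called against untreated cells, and at 8 h AREG and SPRY1 were. In RANGAP1-AID cells the change between the same times was -0.3917 for AREG, 0.5831 for EREG, -1.0299 for SPRY1, -0.6802 for SPRY4, -0.4692 for SPRED1 and -0.5255 for SPRED2, so that EREG rose while the other ligand encoded next to it fell. SPRY1 passed from above the untreated libraries at 2 h to below them at 8 h. The auxin effect at 2 h was lower in AID-NXF1 than in AID-TPR cells by -1.2444 for EREG, -0.4273 for TGFA and -0.6804 for SPRY1. It was higher in AID-GANP than in AID-NXF1 cells by 0.6248 for SPRY1, with auxin for 3 h in the first and 2 h in the second.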

How the results depend on the processing

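The 9 genes gave 25 calls against untreated or ActD controls, of which 18 were kept under every alternative, 10 with any 1 library left out and 9 under both. Of the values called under either of the settings compared, only those with another control of ActD turned their direction. Against untreated AID-TPR libraries without the label old, EREG went to -0.26 and TGFA to 0.19, both called against the old libraries, and AREG (0.55) to -0.50 and SPRED1 (0.12) to -0.10, neither called against them. With the replicate number as a block added they were at -0.28, 0.18, -0.53 and -0.10. The numbers of those libraries did not meet the rule for pairing. Counts of called genes moved by more than 1.5 times as follows, and the cause was not tested. With DESeq2 there were 1 in AID-TPR at 2 h, 5 in old AID-TPR at 2 h, 1 in NUP153-AID at 2 h and 2 between the auxin effects with and without ActD. Of all genes DESeq2 called 203, 425, 54 and 107 in these comparisons, in this order, against 91, 81, 7 and 4 by edgeR. With all 6 AID-TPR pairs there were 4, with a fold of 1.3 in both directions 2 in AID-GANP, and with library totals alone 2 in AID-GANP and 0 in AID-GANP against AID-NXF1. Without the filter there were 3 in AID-TPR at 2 h, 1 and 4 in NUP153-AID at 2 h and 8 h, 2 in NUP50-AID between 9 h and 3 h, and, against AID-TPR, 2 for NUP153-AID, 1 for NUP50-AID, 1 for RANGAP1-AID, 5 for AID-NXF1, 2 for AID-GANP and 3 for old AID-TPR, with 6 for AID-GANP against AID-NXF1 and 3 for ActD. With one fit over all libraries there were 6 in old AID-TPR at 2 h, 1 in NUP153-AID and 1 in RANGAP1-AID at 8 h, 2 in AID-NXF1, 2 and 3 between times in NUP153-AID and RANGAP1-AID, 1 for AID-NXF1 against AID-TPR, 0 for AID-GANP against AID-NXF1 and 4 for ActD.

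With the replicate block there were 2 in AID-TPR at 2 h, 1 in NUP153-AID at 2 h, 1 at 8 h and 4 in NUP50-AID between 9 h and 3 h. Against AID-TPR the block gave 2 for NUP153-AID, 1 for NUP50-AID, 5 for RANGAP1-AID, 7 for AID-NXF1 and 4 for AID-GANP, with 9 for AID-GANP against AID-NXF1 and 5 for ActD. The libraries of NUP153-AID at 8 h, NUP50-AID, old AID-TPR, DLD-1 and, through old AID-TPR, the ActD difference did not meet the rule for pairing. Some of their same-numbered pairs did correlate, as in DLD-1 cells (0.66, 0.05 and 0.53). No paired analysis was possible for ActD against old AID-TPR because they share no replicate number. Leaving out 1 library gave 0 to 3 calls in old AID-TPR at 2 h and 1 to 6 at 8 h, 0 to 1 and 0 to 2 in NUP153-AID, 1 to 3 in RANGAP1-AID at either time, 2 to 4 in AID-NXF1, 1 to 2 in AID-GANP and 5 to 7 with ActD. For differences it gave 3 to 4 and 5 to 7 between times in NUP153-AID and RANGAP1-AID, 0 to 3 for AID-NXF1 and 0 to 1 for AID-GANP against AID-TPR, and 0 to 2 for AID-GANP against AID-NXF1. Replicates differed by more than counting noise, so that depth alone did not set the precision of these values.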
